A study of Mus musculus with 6 samples.

Results

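Gsta4 and Acaa2 are 2 of the 50 mRNAs that have a probe on the small RNA array used for plasma extracellular vesicles (EVs), among 14242 probes in all. Their probes, A_51_P112223 (accession NM_010357, Gsta4) and A_51_P125260 (accession NM_177470, Acaa2), were found by probe name, and the accessions led to the same gene symbols. Each probe was printed on 10 spots of every array. Both genes were selected on their normalized signals in these same arrays, with the difference between cancer-EVs and non-cancer-EVs already known, so their values are a description without a test.

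The non-cancer-EVs came from plasma of control mice and the cancer-EVs from plasma of mice bearing lung tumors, with 3 samples and 3 arrays per group. A figure legend of the study names Lewis lung carcinoma (LLC), a mouse lung cancer cell line, as the tumor of these mice. The methods give C57BL/6J, obtained as young adults, as the strain of the study, without naming the mice of the arrays. No allele, drug treatment, age at blood sampling or number of mice per sample is given for these arrays in the sources used here. The treatment note in the labels of all 6 samples speaks of irradiation and of blood from volunteers, which the organism label and the methods do not, and it was not used to define a group. Both groups had their EVs pelleted by ultracentrifugation of filtered plasma, and the RNA was end-labeled with Cy3 and hybridized with 1 dye. The plasma EVs are a mixture from many cells of the mouse, so fewer EVs of a kind and less RNA per EV cannot be told apart. The probe sequences and their strand are not used here, and whether a spot bound the full mRNA, a fragment of it or its antisense RNA was not tested.

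Gsta4 is an alpha-class glutathione S-transferase that joins glutathione to 4-hydroxynonenal, a reactive aldehyde that forms when membrane lipids are peroxidized. Acaa2 is the mitochondrial 3-ketoacyl-CoA thiolase, which cuts acetyl-CoA from the fatty acid chain in the last step of beta-oxidation. Both genes are highly expressed in liver and other tissues that burn fat, and EVs can carry pieces of such cellular mRNAs in plasma.

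All 6 arrays shared 1 scan time and held 14692 non-control spots each. Their median signal ranged from 24.7 to 44.4, between 89.7% and 98.3% of spots were well above background, 0 were saturated, and the 19 to 25 with an outlier mark on each array were dropped. The barcode field in the header of each array starts with 1 or 2, which was read here as the row on the slide. By this inferred reading, row 1 held the 3 cancer-EVs arrays and non-cancer-EVs 1, and row 2 held non-cancer-EVs 2 and 3.

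The Gsta4 probe gave a dim signal that was still above background everywhere. On the scale of the deposited signal, its spots averaged 8.66, 12.9 and 25.2 in non-cancer-EVs 1, 2 and 3. In cancer-EVs 1, 2 and 3 they averaged 19.4, 34.4 and 17.8. Non-cancer-EVs 1 was the dimmest array for Gsta4 and cancer-EVs 2 the brightest, and the groups overlapped. Before background subtraction the median pixel of these spots was 29.0 to 53.5 over a local background of 14.0 to 14.5, and all 10 spots were well above background on every array. 1 spot of non-cancer-EVs 1 and 2 spots of non-cancer-EVs 3 carried an outlier mark.

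The Acaa2 probe followed the same order of arrays at its ends. Its signal averaged 35.4, 58.7 and 94.6 in non-cancer-EVs 1, 2 and 3, and 78.2, 142.8 and 74.1 in cancer-EVs 1, 2 and 3. Again non-cancer-EVs 1 was lowest and cancer-EVs 2 highest, and non-cancer-EVs 3 was above 2 of the 3 cancer-EVs arrays. The median pixel before subtraction was 56.5 to 162.5 over a local background of 14.25 to 15, and all 10 spots were well above background on every array. Outlier marks fell on 2 spots of non-cancer-EVs 1 and on 1 spot of cancer-EVs 2.

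**Figure D1:**
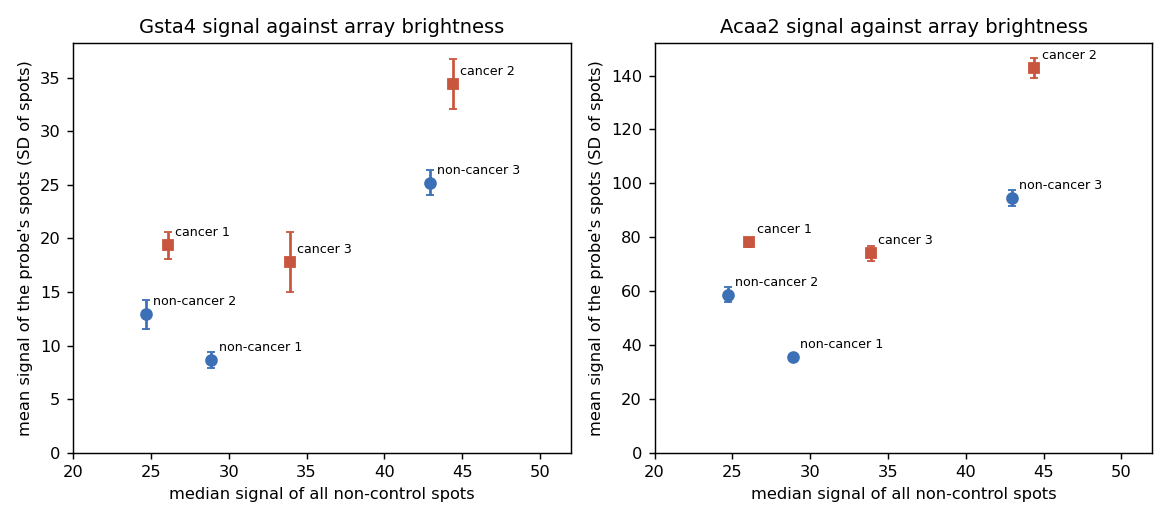
Mean deposited signal of the Gsta4 spots (left) and Acaa2 spots (right) against the median signal of all non-control spots of the same array, with circles for non-cancer-EVs, squares for cancer-EVs and bars for the SD of the spots. The brightest array, cancer-EVs 2 with a median of 44.4, also had the highest signal of both probes, and non-cancer-EVs 1 with a median of 28.9 the lowest.

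The arrays also differed in overall brightness. The median signal was 28.9, 24.7 and 42.9 for non-cancer-EVs 1, 2 and 3 and 26.1, 44.4 and 33.9 for cancer-EVs 1, 2 and 3. Divided by the median of its array, the Gsta4 signal was 0.300, 0.523 and 0.587 in non-cancer-EVs and 0.742, 0.775 and 0.525 in cancer-EVs. For Acaa2 the same quotient was 1.23, 2.38 and 2.20 in non-cancer-EVs and 2.99, 3.21 and 2.18 in cancer-EVs. On this scale cancer-EVs 1 and 2 were above every non-cancer-EVs array for both genes, whereas cancer-EVs 3 lay beside non-cancer-EVs 2 and 3.

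Quantile normalization, the method named by the study, gave each array the same distribution of signals before the log2 step. The Gsta4 log2 signal was then 3.21, 4.14 and 4.28 in non-cancer-EVs 1, 2 and 3 and 4.64, 4.72 and 4.11 in cancer-EVs 1, 2 and 3. Non-cancer-EVs 1 was lowest by a wide margin, cancer-EVs 1 and 2 were highest, and cancer-EVs 3 fell below non-cancer-EVs 2 and 3. Cancer-EVs averaged 4.49 ± 0.33 (SD, n = 3), whereas non-cancer-EVs averaged 3.88 ± 0.58 (SD, n = 3). This is a log2 difference of 0.61 (standard error 0.39), or 1.53-fold.

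The Acaa2 log2 signal was 5.35, 6.28 and 6.19 in non-cancer-EVs 1, 2 and 3 and 6.63, 6.77 and 6.23 in cancer-EVs 1, 2 and 3. Here too cancer-EVs 3 lay among the non-cancer-EVs, between replicates 3 and 2. Cancer-EVs averaged 6.54 ± 0.28 (SD, n = 3), whereas non-cancer-EVs averaged 5.94 ± 0.51 (SD, n = 3), a log2 difference of 0.60 (standard error 0.34), or 1.52-fold. The lowest cancer-EVs array was below the highest non-cancer-EVs array for both genes, with gaps of -0.17 log2 units for Gsta4 and -0.05 for Acaa2.

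Neither of the 2 genes therefore had groups that did not overlap. Over all 13779 probes tested, 4.45% had every cancer-EVs array above every non-cancer-EVs array, and 8.73% had every one below. Among the 47 mRNA probes tested the shares were 6.38% above and 6.38% below, 3 probes each. Both differences were larger than 1.4-fold, the fold cutoff of the study, which 7.66% of all probes and 31.9% of the mRNA probes (15 of 47) passed upward. The pooled SD between arrays of one group was 0.48 for Gsta4, against a difference of 0.61, and 0.41 for Acaa2, against 0.60.

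**Figure D2:**
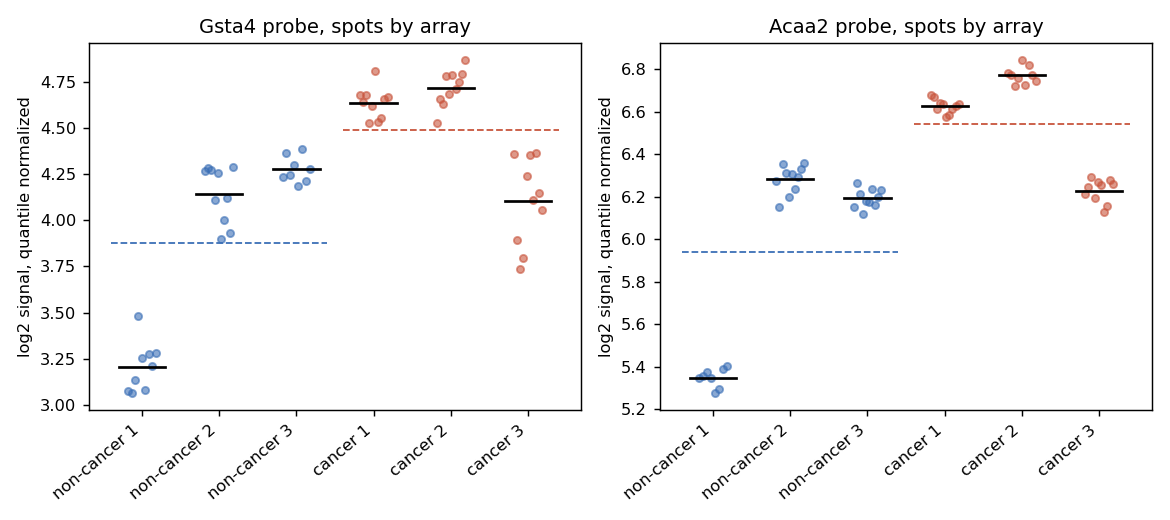
Quantile normalized log2 signal of each kept spot of the Gsta4 probe (left) and the Acaa2 probe (right) on the 6 arrays, with a black bar for the array mean and a dashed line for the group mean (blue, non-cancer-EVs; red, cancer-EVs). Non-cancer-EVs 1 lies below all other arrays, at 3.21 for Gsta4 and 5.35 for Acaa2, and cancer-EVs 3 lies within the range of the non-cancer-EVs.

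One array carried much of the difference. Without non-cancer-EVs 1, the log2 difference was 0.28 for Gsta4 and 0.31 for Acaa2, against 0.61 and 0.60 with all arrays. Leaving out any other single array kept it between 0.49 and 0.82 for Gsta4 and between 0.49 and 0.77 for Acaa2. Non-cancer-EVs 1 was also the only control in row 1 of the slide, as inferred from the barcode field. Within that row the log2 difference from the 3 cancer-EVs arrays was 1.28 for Gsta4 and 1.19 for Acaa2, with 1 control array and thus no spread. Row 2 held non-cancer-EVs alone and gives no difference.

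The spots show how exactly each array was read. The SD of the log2 signal between spots of one array was 0.14 for Gsta4 and 0.05 for Acaa2, pooled over the 6 arrays. The SD between arrays of one group was 3.38 times as large for Gsta4 and 8.45 times as large for Acaa2. Each sample had a single array, so differences between samples and those of labeling, hybridization or slide position cannot be told apart in that spread. Coefficients of variation of the spot signals ran from 4.62% in non-cancer-EVs 3 to 15.8% in cancer-EVs 3 for Gsta4, and from 2.16% in cancer-EVs 1 to 4.69% in non-cancer-EVs 2 for Acaa2. The 10 Gsta4 spots of cancer-EVs 3 covered 13.7 to 21.0 in signal, the widest relative spread of either gene. Spots of one array share a sample and are not replicates of a group.

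Gsta4 and Acaa2 moved together over the arrays. Since both were selected on their values in these same arrays, this is a description and no independent result. The Acaa2 log2 signal exceeded that of Gsta4 by 2.14, 2.14 and 1.92 in non-cancer-EVs 1, 2 and 3 and by 1.99, 2.05 and 2.12 in cancer-EVs 1, 2 and 3. This distance spanned 0.23 log2 units, while Gsta4 itself spanned 1.51 and Acaa2 1.42. The groups overlapped, with a mean of 2.06 ± 0.07 (SD, n = 3) for cancer-EVs and 2.07 ± 0.13 (SD, n = 3) for non-cancer-EVs. The size of the distance also holds the brightness of 2 different probes and is no ratio of mRNA amounts. Only its change over the arrays can be read, and the 2 probes shared each array and its normalization.

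The likeness of all mRNA profiles was measured by the root mean square difference of the log2 signals over the 6 arrays, after the mean of each probe was taken off. Among 37 other named mRNA probes that were well above background on all 6 arrays, Acaa2 was the closest to Gsta4, at 0.08 log2 units, and Gsta4 the closest to Acaa2. Rab5a, a small GTPase of early endosomes, was at 0.10 from Gsta4 and 0.12 from Acaa2. Mbp, a structural protein of myelin, was at 0.11 and 0.12. The median distance to the 37 probes was 0.48 for Gsta4 and 0.45 for Acaa2. The same 3 probes were closest to each gene under quantile, 75th percentile and cyclic loess normalization, though a scaling that shifts all probes of an array alike cancels in this distance.

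The closest probes, picked for their likeness, measure genes outside lipid metabolism. Rab5a had log2 signals of 4.40, 5.47 and 5.40 in non-cancer-EVs 1, 2 and 3 and of 5.84, 5.93 and 5.11 in cancer-EVs 1, 2 and 3. Mbp ranged from 4.10 to 5.12 in non-cancer-EVs and was 5.60, 5.48 and 4.82 in cancer-EVs 1, 2 and 3. Both had their lowest value in non-cancer-EVs 1 and their highest in cancer-EVs 1 or 2, and in both cancer-EVs 3 fell below non-cancer-EVs 2 and 3. limma gave a log2 difference of 0.54 for Rab5a (standard error 0.33, adjusted p = 0.695) and 0.56 for Mbp (standard error 0.31, adjusted p = 0.690), with the Benjamini-Hochberg adjustment over all probes. The low value in non-cancer-EVs 1 went well beyond these 4 genes, as that array was the lowest of the 6 for 27 of the 47 mRNA probes tested, compared with 2477 of all 13779 probes. Under 75th percentile scaling, cyclic loess and no normalization it was the lowest for 25, 30 and 22 of the 47, and for 2028, 3395 and 1847 of all 13779 probes.

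**Figure D3:**
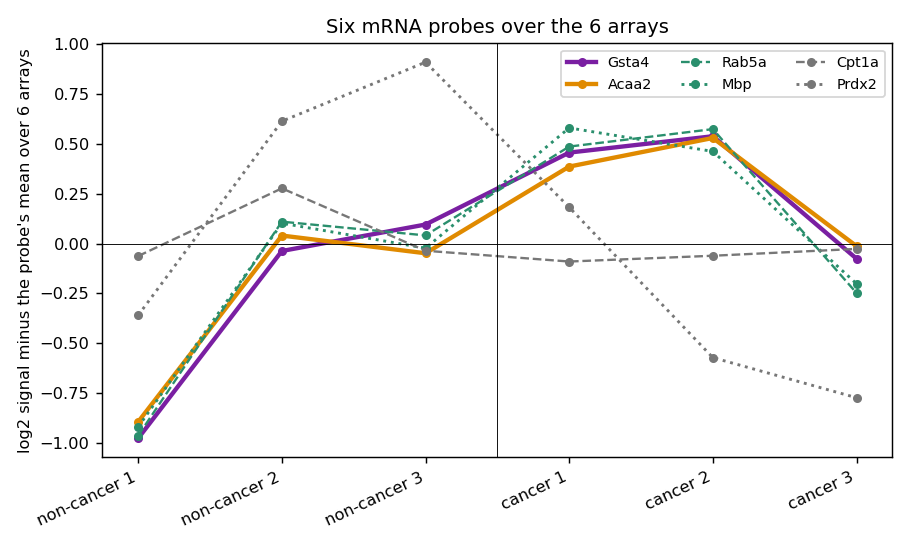
Quantile normalized log2 signal of 6 mRNA probes on the 6 arrays, each with its own mean over the arrays taken off (lines only join the points of a probe, since replicates have no order). Gsta4, Acaa2, Rab5a and Mbp run close together, lowest in non-cancer-EVs 1, while Cpt1a stays within a narrow range and Prdx2 is highest in non-cancer-EVs 3.

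Few other genes of lipid oxidation are on the array. Of 24 listed genes of mitochondrial beta-oxidation and its control, 3 have a probe, which are Acaa2, Cpt1a and Ppara. Cpt1a, which makes the acylcarnitines that carry long-chain fatty acids into mitochondria, had log2 signals of 4.97 to 5.31 in non-cancer-EVs and of 4.94, 4.97 and 5.01 in cancer-EVs 1, 2 and 3. Its groups overlapped, and the log2 difference was -0.12 (standard error 0.15, limma adjusted p = 0.816 with Benjamini-Hochberg adjustment). Ppara, the nuclear receptor that switches on genes of fatty acid oxidation, was not well above background on any of the 6 arrays, with a signal of at most 3.48, and was not tested.

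Of 41 listed genes of glutathione transfer and of peroxide or aldehyde removal, Gsta4 and Prdx2 have a probe. Prdx2, a peroxiredoxin that reduces hydrogen peroxide and is abundant in red cells, had log2 signals of 8.57, 9.54 and 9.83 in non-cancer-EVs 1, 2 and 3 and of 9.11, 8.35 and 8.15 in cancer-EVs 1, 2 and 3. The difference was -0.77, opposite in sign to that of Gsta4 (standard error 0.36, limma adjusted p = 0.690 with Benjamini-Hochberg adjustment). Its groups overlapped as well, since cancer-EVs 1 was above non-cancer-EVs 1. Apoe, the apolipoprotein that lets cells take up lipoprotein remnants, was the single gene with a probe among 26 listed for other lipid handling. It ranged from 8.21 to 8.53 in non-cancer-EVs and from 8.11 to 8.47 in cancer-EVs, a log2 difference of -0.09 (standard error 0.17, limma adjusted p = 0.866). Of these other genes in the 3 lists, 3 were tested (Prdx2, Cpt1a and Apoe), and 0 rose and 0 fell at the cutoffs of the study, a fold change over 1.4 together with an unadjusted p under 0.05. At those cutoffs 3.02% of all probes were higher and 1.72% lower, as were 6.38% and 2.13% of the mRNA probes, and 5 of the 47 mRNA probes had an unadjusted p below 0.05.

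Markers of blood and tissue cells are too sparse on the array to place the 2 mRNAs in a source. Red cells were represented by 1 of 12 listed markers (Prdx2), liver by 1 of 8 (Apoe) and leucocytes by 2 of 10 (Il2 and Gsdmd). Platelets with 7 and lung or tumor epithelium with 6 listed markers had no probe. The deposited Prdx2 signal was 300.9 to 1258 in non-cancer-EVs and 279.2 to 441.7 in cancer-EVs. Apoe, the liver marker, gave 226.9 to 458.5 in non-cancer-EVs and 213.4 to 439.1 in cancer-EVs. The summed signal of the leucocyte pair was 161.7 to 321.1 and 158.9 to 335.2. Their part in the Gsta4 and Acaa2 values was not tested, and no marker of EVs themselves was listed.

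Seen among the mRNA probes, the 2 genes were neighbors in the upper part of the order. Of the 47 that were well above background on at least 3 arrays, 31 had a positive and 16 a negative log2 difference, with a median of 0.20 against -0.07 over all 13779 probes. From the top, Gsta4 stood at place 10 and Acaa2 at place 11. Over all probes, 5.45% had a difference at least as large as that of Gsta4 and 5.62% at least as large as that of Acaa2. The differences of the mRNA probes ran from -0.77 for Prdx2 to 1.17 for Olfr1307. The standard errors of Gsta4 (0.39) and Acaa2 (0.34) are wider than their distance to each other and to the probes next to them, so the order is not resolved there.

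**Figure D4:**
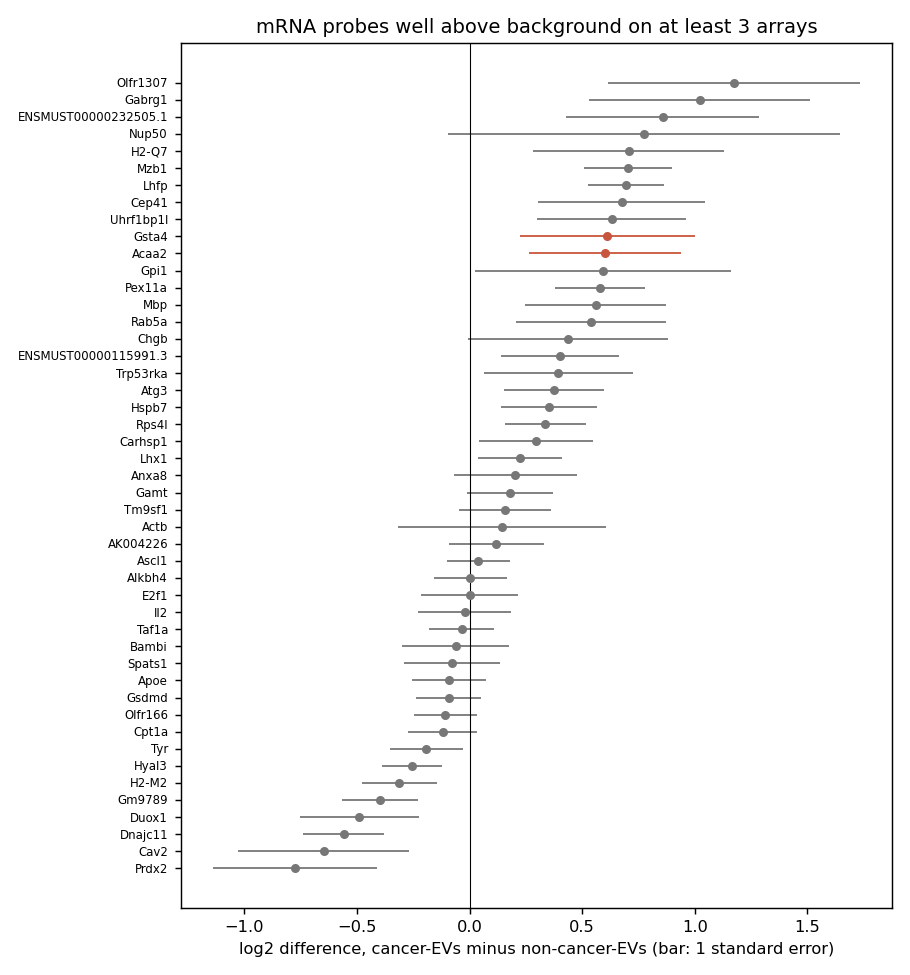
Log2 difference between cancer-EVs and non-cancer-EVs of the 47 mRNA probes tested, ordered by size, with bars of 1 standard error (limma for the gray probes, from the SD of each group for Gsta4 and Acaa2 in red). Gsta4 at 0.61 and Acaa2 at 0.60 stand at places 10 and 11 from the top.

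Both differences were positive under all 14 other settings tried. The genes were chosen on this difference in these same arrays, so an unchanged sign is a description and no independent support. The replicate block could not change the difference, since each replicate number occurs once per group. One setting started from the median pixel of each spot in place of the processed signal, used the normexp model of the background and added an offset of 50, all at once. It gave 0.15 for Gsta4, the smallest value of that gene, and 0.33 for Acaa2, which was smallest without non-cancer-EVs 1 (0.31), and the parts of the 3 changes were not separated. Between quantile, 75th percentile and cyclic loess normalization and none, the log2 difference was between 0.59 and 0.69 for both genes.

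**Figure D5:**
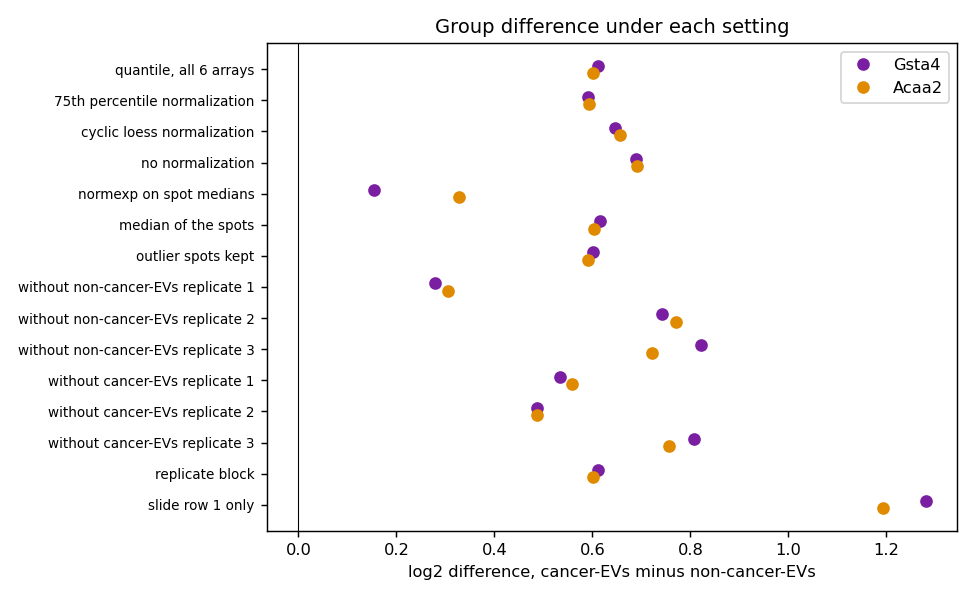
Log2 difference between cancer-EVs and non-cancer-EVs for Gsta4 (purple) and Acaa2 (orange) under each setting, with the quantile normalized value over all 6 arrays at the top. All points are above 0, the smallest being 0.15 for Gsta4 after normexp, and without non-cancer-EVs 1 they lie at 0.28 and 0.31.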

How the data were processed

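Images were read by the authors with Agilent Feature Extraction 11.0.1.1, whose deposited spot intensity has background and spatial trend removed without any scaling across arrays. Further deposited were log2 values made by quantile normalization in GeneSpring, for 14192 small RNA probes and 0 mRNA probes, which served only for counts over the array. The deposited treatment text speaks of irradiation and volunteers' blood, whereas the organism label and the methods give mice. Groups came from the disease label and replicate numbers from the titles.

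Control spots and outlier-marked spots were left out. Signals were quantile normalized between the 6 arrays, floored at 1 and log2-transformed, after which spots of a probe were averaged. Probes were tested if well above background on at least 3 arrays (for mRNA probes, on at least 50% of spots) and measured on all 6. One limma 3.58.1 model in R 4.3.3 (lmFit with eBayes, two-sided tests, no covariate) was fitted over all probes, with Benjamini-Hochberg adjustment over all of them, and was tested on simulated data. P-values measure only the spread between these samples, whose origin from separate mice is not stated. Gene symbols came from RefSeq accessions (GRCm38.p6), which matched 46 of 50 mRNA probes. Array headers name build mm9, so no coordinates are given.

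The members and lists were chosen with earlier results of these data known. Named were both genes, the 3 closest mRNA profiles of each and every gene of the lists that has a probe. Alternatives covered normalization, background correction, outlier spots, averaging of spots, filter, source of values, test, replicate block and each array left out.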

Additional observations from a re-analysis of the deposited data

How the results depend on the processing

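The restriction to slide row 1, a row inferred from the barcode field, was chosen after seeing the data. It gave log2 differences of 1.28 for Gsta4 and 1.19 for Acaa2, against 0.61 and 0.60, where non-cancer-EVs 1 was the single control. Over fits that each omit 1 array, the difference ranged from 0.28 to 0.82 for Gsta4 and from 0.31 to 0.77 for Acaa2, both lowest without non-cancer-EVs 1. The other settings moved both by less than the SD between arrays of one group. That SD was wide, at 0.48 for Gsta4 and 0.41 for Acaa2. The fall of Gsta4 from 0.61 to 0.15 under normexp with its offset thus still counts as such a move. The deposited log2 table could not be used for the 2 genes, since it holds no mRNA probe.

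Over the whole array, limma called 416 probes higher and 237 lower at the cutoffs, and 0 at an adjusted p below 0.05 (949 at an unadjusted p below 0.05). The methods' t-test called 133 higher and 139 lower, with 786 probes under 0.05 before and 0 after Benjamini-Hochberg adjustment. Cyclic loess left 408 higher and 124 lower. Same-numbered arrays deviated from their group means with r = 0.09, 0.25 and -0.22 across probes. With 3 arrays per group these values cannot decide whether samples were paired. The replicate block holds each replicate number once per group, so the log2 differences of Gsta4 and Acaa2 were bound to stay at 0.61 and 0.60. It gave 720 probes higher, 6 adjusted calls and 7 mRNA probes higher, in place of 3. With single arrays left out, probes called ranged from 226 (without cancer-EVs 2) to 738 (without non-cancer-EVs 2) higher and from 159 (without cancer-EVs 2) to 506 (without cancer-EVs 3) lower, with 0 adjusted calls in every set. Among the mRNA probes, with Gsta4 and Acaa2 not left out, higher ones ranged from 1 (without cancer-EVs 2) to 10 (without cancer-EVs 3). Lower ones ranged from 1 to 3 (without cancer-EVs 1). The cause was not tested.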

Other observations

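The mRNA probes past the cutoffs of the study by limma, 3 higher and 1 lower, were named after their values were seen. By the methods' t-test 2 were higher (Mzb1 and Lhfp) and 1 lower (Dnajc11), and Pex11a was not called. Pex11a, a protein that divides peroxisomes, where very long fatty acids are oxidized, had a log2 difference of 0.58 (standard error 0.20, limma adjusted p = 0.690). Its log2 signals were 11.28, 11.13 and 11.70 in non-cancer-EVs 1, 2 and 3 and 11.82, 12.20 and 11.82 in cancer-EVs 1, 2 and 3. Mzb1, an endoplasmic reticulum protein of antibody-making B cells, had a log2 difference of 0.70 (standard error 0.20, limma adjusted p = 0.570). Lhfp had one of 0.69 (standard error 0.17, limma adjusted p = 0.438) and was well above background on 3 arrays. Dnajc11, a mitochondrial cochaperone, was the 1 mRNA probe lower at the cutoffs, with a log2 difference of -0.56 (standard error 0.18, limma adjusted p = 0.690). The groups did not overlap for any of the 4, as for 4.45% of all probes upward and 8.73% downward, whereas those of Gsta4 and Acaa2 did. The cutoffs that picked the 4 favor groups without overlap, so this is no separate result. None of the 4 passed the Benjamini-Hochberg adjustment over all probes.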
